A study of Mus musculus with 15 samples.

Results

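A set of 97 mouse genes read lower in macrophages given lipopolysaccharide and NZM than in macrophages given lipopolysaccharide alone and than in macrophages given neither. They were chosen from the deposited TPM (transcript shares that are corrected for gene length and scaled to the same total in each library). To qualify, a gene had to average 5 TPM or more in Control and in LPS, with log2(mean TPM + 1) in LPS_NZM at least 0.8 below that of both groups. Of 56979 identifiers, 9327 passed the level in Control and LPS, and 103 of them (1.10%) passed the margin. Of these, 6 were set aside by symbol (Hmox1, Oas2, Ifit1, Ifit2, Ifit3 and Ifit3b), which left the 97 members (1.04%). Symbols starting with Gbp were to be set aside too, but none passed the margin.

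The libraries came from wild type mouse bone marrow cells, with 3 libraries in each of 5 groups. The BMDM (bone marrow-derived macrophages) comprised Control (vehicle), LPS (lipopolysaccharide, a component of the outer membrane of Gram-negative bacteria) and LPS_NZM (LPS and NZM). The BMSC comprised Aged (treatment labelled H2HO) and Aged_NZM (H2HO and NZM), and in both cell types NZM followed the model drug. The labels explain neither NZM nor H2HO, and give no dose, time, age or sex. They do not say whether replicates were separate animals or cultures, so all errors and p-values below describe only how far these libraries differed, which may be technical spread. The 15 libraries include no BMDM given NZM without LPS, so an effect of NZM alone on these cells cannot be read.

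Lipopolysaccharide is bound by CD14 and passed to the receptor TLR4 with its partner MD-2, and signalling then branches. One branch runs through MYD88 to NF-kB and inflammatory cytokines, and the other through TRIF to interferon beta. Interferon beta is secreted and acts back on the macrophage through its receptor, and many of the genes it induces carry a DNA element named the interferon-stimulated response element. Genes of the HIN-200, Schlafen and TRIM families are induced along this second route, and resting macrophages keep some of them at a lower level through tonic interferon signalling.

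The values of LPS_NZM, LPS and Control chose the members, so their distance from both groups is a description and was not tested. Across the 97 members the mean in LPS_NZM was between 4.93% and 56.3% of that in Control, with a median of 44.8%. It was between 0.646% and 54.2% of that in LPS, with a median of 26.2%. Both lowest shares came from Myl12b, which read 0 TPM in replicates 2 and 3 of each BMDM group and is described further on. Apart from it the lowest were 8.32% of Control (Cx3cr1) and 3.71% of LPS (Gm6545). The median of the members' means was 28.2 TPM in Control, 73.0 TPM in LPS and 12.6 TPM in LPS_NZM. For 90 members every LPS_NZM library lay below every Control and every LPS library, and 7 members overlapped. The margin that chose them favours such separation, and the share over all genes was not computed, so this count is only a description. In bulk libraries a lower share of cells that express a gene and less of its RNA per cell cannot be told apart. The margin below the lower of both groups ran from 0.80 to 2.37 (Myl12b, then Pid1 at 2.26) on the log2 scale, with a median of 1.04. It was at least 1 for 54 members and at least 1.5 for 11. The members nearest inside it were Zup1 (0.80), Lyn (0.82) and Ptprc (0.82), and the genes nearest outside it were Noct (0.7999), Dclre1c (0.7988) and Adamts4 (0.794).

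**Figure D1:**
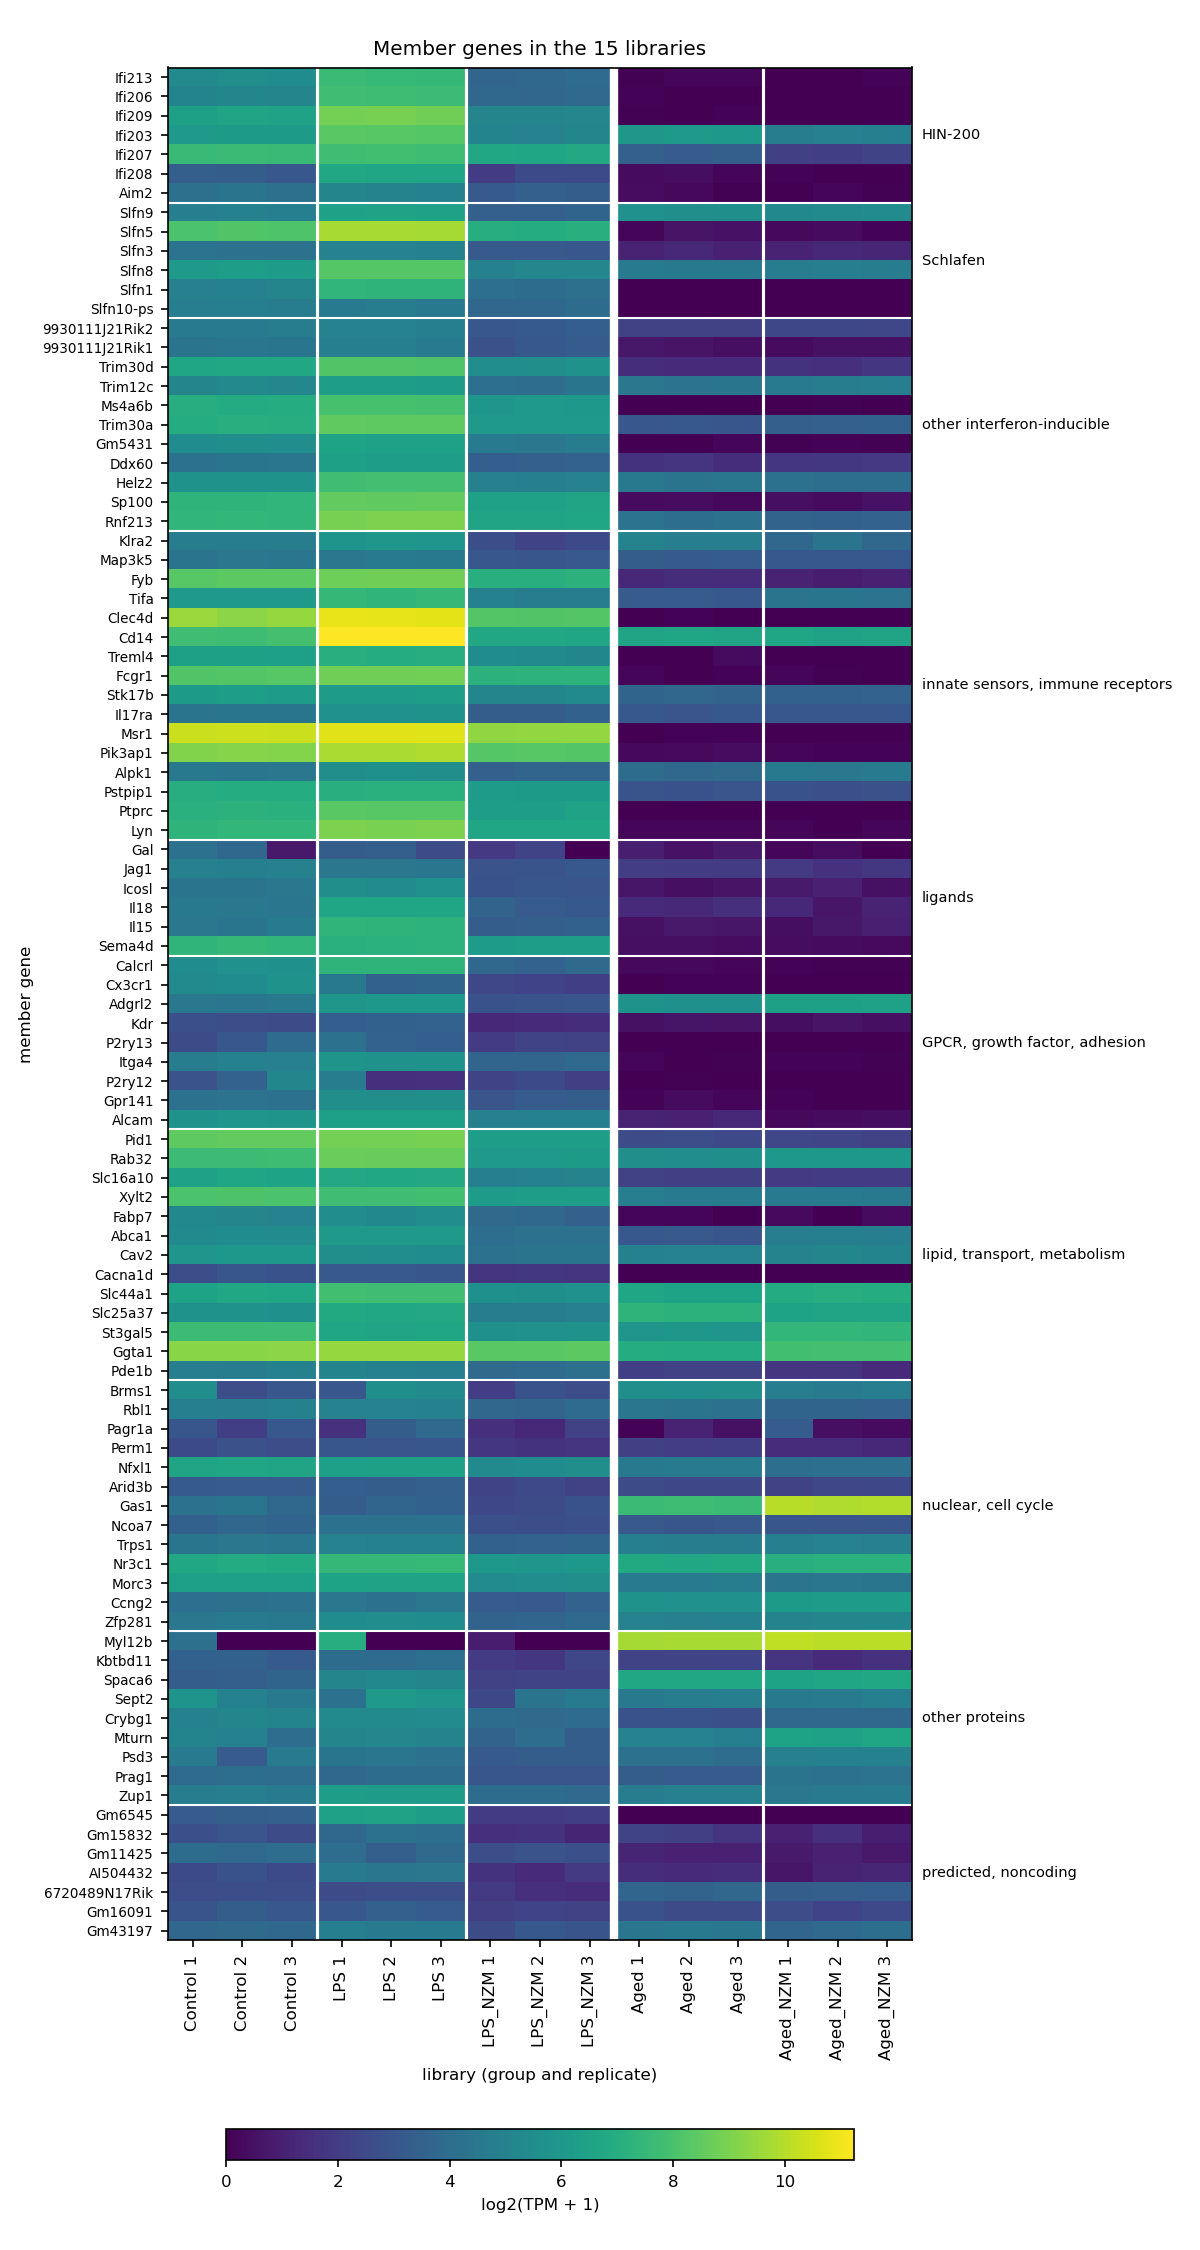
Heat map of log2(TPM + 1) for the 97 members (rows, grouped by function) in the 15 libraries (columns, 3 per group), with white lines between groups and a wide line between BMDM and BMSC. The 3 LPS_NZM columns are darker than the Control and LPS columns for nearly all members, and many rows are near 0 in the BMSC columns.

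Most members stood higher in LPS than in Control. All 3 LPS libraries lay above all 3 Control libraries for 72 members and below them for 8, and the groups overlapped for 17. Of the 9327 genes that passed the level in both groups, 17.4% lay wholly above, 70.4% wholly below and 12.2% overlapped. In limma's test across all genes, 78 of the 96 members tested were called (81.2%, against 80.8% of all genes). Of these, 70 were higher in LPS (72.9%, against 15.2% of all 14486 genes tested) and 8 lower (8.33%, against 65.6%). The median log2 change of (TPM + 1) was 0.69 for the members and -0.48 for all genes tested. The levels in both groups entered the choice of members, so these counts are a description and support nothing about LPS. TPM are shares, and after centring every library on its median gene 85 members were called higher and 2 lower. Of all genes, 36.5% were then called higher and 29.1% lower.

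**Figure D2:**
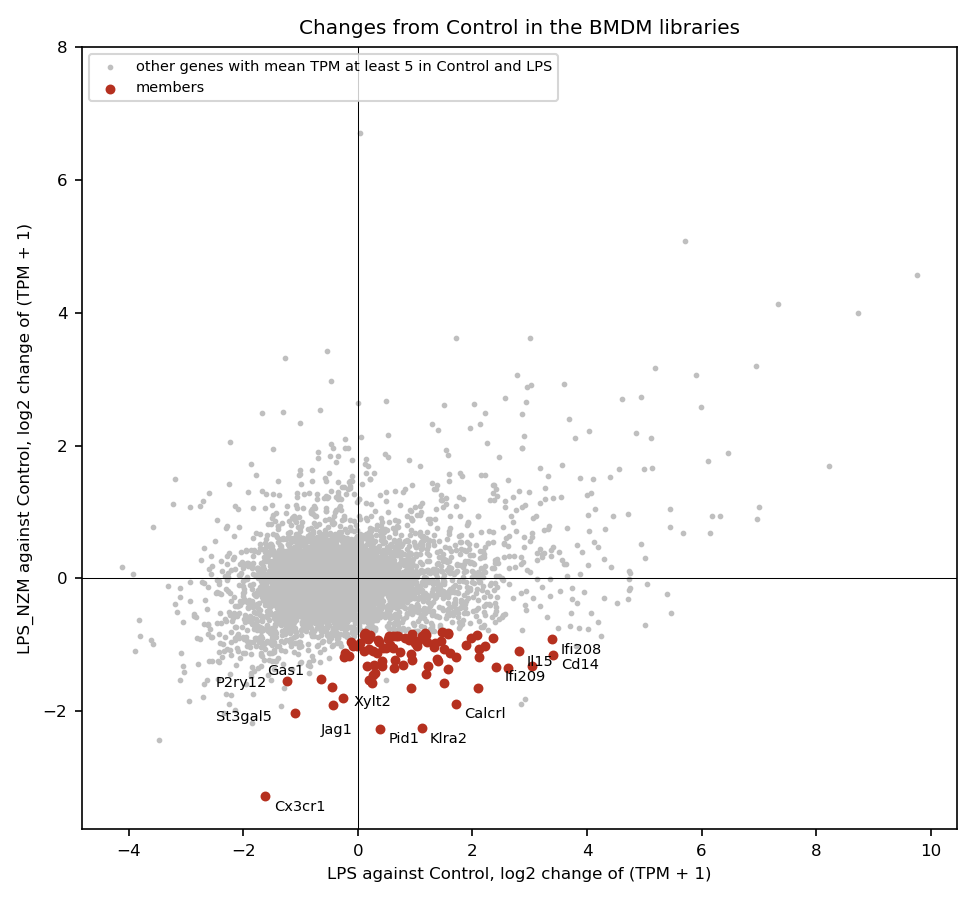
Scatter of the log2 change of (TPM + 1) from Control in LPS (x axis) and in LPS_NZM (y axis), 1 point for each gene that averaged 5 TPM or more in Control and in LPS, the 96 members tested in red. The members lie in the lower band that the choice fixed and spread along the x axis from Cx3cr1 (-1.61) to Cd14 (3.41).

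The members were sorted by known function into 10 groups after they had been seen. The HIN-200 genes formed a group of 7 (Aim2, Ifi203, Ifi206, Ifi207, Ifi208, Ifi209 and Ifi213). HIN-200 proteins bind DNA through a HIN domain, and AIM2, the best known of them, senses DNA in the cytosol and assembles an inflammasome that activates caspase-1. Together with 6 Schlafen genes and 11 other interferon-inducible genes they made up 24 of the 97 members.

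The promoters of these genes are shown first, because the interferon-stimulated response element was more frequent in them than in the other members. RefSeq promoters on GRCm38.p6 were matched by symbol to 77 of the 97 members, and the 250 bases before each start were searched on both strands for GAAA, any 2 bases and GAAA again, a core of that element. A match is a description of letters and not a bound site. It was present in 14 of the 77 members (18.2%), against 259 of 7089 genes (3.65%) that passed the level in Control and LPS and 936 of 27025 genes (3.46%) in all. By group it was present in 5 of 7 HIN-200 genes, 3 of 5 Schlafen genes and 4 of 11 other interferon-inducible genes, together 12 of 23 (52.2%). Outside these groups it was present in 2 of 54 members (3.70%), Crybg1 and Pde1b. The fixed list of interferon-stimulated genes held it in 28 of the 62 genes that are not members (45.2%), a share near that of the interferon-inducible members. Of genes called higher in LPS that are not members, 7.21% held it.

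Below are stretches of 60 bases, 5′ to 3′ on the strand of the gene, taken around the match within the 250 bases searched. They are shown for 7 of the 8 members whose match lies outside the annotated gene, and Trim12c is the one not shown. Capitals mark the match, in the direction just given or as its reverse complement.
Ifi206: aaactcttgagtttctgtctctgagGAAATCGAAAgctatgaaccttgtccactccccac
Ifi208: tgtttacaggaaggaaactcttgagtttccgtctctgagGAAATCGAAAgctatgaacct
Ifi207: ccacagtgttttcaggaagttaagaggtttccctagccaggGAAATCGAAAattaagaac
Slfn8: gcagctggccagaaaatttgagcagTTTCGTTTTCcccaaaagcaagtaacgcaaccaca
Slfn9: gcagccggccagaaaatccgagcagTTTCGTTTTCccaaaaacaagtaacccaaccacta
Trim30a: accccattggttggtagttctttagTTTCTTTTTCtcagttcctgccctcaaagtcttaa
Trim30d: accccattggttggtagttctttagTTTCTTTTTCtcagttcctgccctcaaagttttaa
These lie at chr1:173491324-173491383 on the minus strand, chr1:173673568-173673627 on the plus strand, chr1:173741832-173741891 on the minus strand, chr11:83020824-83020883 on the minus strand, chr11:82991841-82991900 on the minus strand, chr7:104465195-104465254 on the minus strand and chr7:104507856-104507915 on the minus strand, in that order. The same 10 letters form the match in Ifi206, Ifi207 and Ifi208, and aligned on it Ifi206 and Ifi208 differed at 1 of 46 bases. Trim30a and Trim30d differed at 1 of 60 bases, and Slfn8 and Slfn9 at 16 of 60. These families hold closely related genes. How reads that match several of them were counted is not given in the sources used here, so the level of a single HIN-200, Schlafen or Trim30 gene may be uncertain.

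Over all 77 members with a promoter the other motifs searched lay closer to their background, and none of these shares was tested. The STAT6-type spacing (TTC, any 4 bases, GAA) was present in 11.7% of the members with a promoter, against 5.74% of genes at that level and 6.76% of all. The gamma-activated spacing (TTC, any 3 bases, GAA) was present in 7.79%, against 6.95% and 8.13%. The AP-1 site TGANTCA was present in 7.79%, against 5.54% and 7.82%, and the PU.1 site GAGGAAGT in 3.90%, against 3.41% and 2.79%. The NF-kB site, searched by its degenerate consensus, was present in 12.99%, against 10.8% and 8.23%. In the 23 interferon-inducible members with a promoter the shares differed more from these backgrounds. There the STAT6-type spacing and the AP-1 site were each present in 17.4%, the NF-kB site in 21.7% and the PU.1 site in 8.70%. The gamma-activated spacing was present in 0 of them. Matches of different motifs may overlap, and no match says only that the letters are not in this window.

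Ifi209 (ENSMUSG00000043263) had the highest level in LPS of the HIN-200 members. Its 3 Control libraries read 83.7, 92.2 and 87.8 TPM, and it read 475, 493 and 445 TPM in LPS and 33.5, 33.3 and 36.2 TPM in LPS_NZM. The 3 groups did not overlap, and the mean with NZM was 39.1% of Control and 7.29% of LPS. Ifi206, whose promoter is shown above, read 32.5, 34.8 and 33.7 TPM in Control, 217, 214 and 205 TPM in LPS and 12.3, 12.03 and 13.4 TPM in LPS_NZM. Ifi213 followed the same order at 43.1 ± 2.52, 188 ± 10.2 and 13.03 ± 1.23 TPM (mean ± SD, n = 3 libraries, as in all such values). Ifi208 was the least abundant HIN-200 member in Control and stood at 4.19% of its LPS level with NZM, from 98.8 ± 2.40 to 4.14 ± 1.09 TPM. Ifi207 differed from the others in that LPS and Control were close, at 221 ± 5.48 and 194 ± 5.18 TPM, and it read 103 ± 3.67 TPM with NZM. Aim2 read 16.7, 18.9 and 16.5 TPM in Control, 33.7, 31.6 and 29.6 TPM in LPS and 8.03, 9.84 and 8.81 TPM in LPS_NZM. All 7 were called higher in LPS than in Control, with log2 changes from 0.18 (Ifi207) to 3.39 (Ifi208). Of all genes 15.2% were called higher, and Control and LPS levels chose the members, so this is a description.

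The table held 13 HIN-200 genes, of which 11 passed the level in Control and LPS. The 4 that passed it and were not members were Mndal, Ifi204, Ifi211 and Ifi205, with margins of 0.73, 0.72, 0.55 and 0.15 on the log2 scale. In each of them LPS_NZM also lay below Control, so the family shared the direction and differed in the distance. In the RefSeq gene order of GRCm38, Aim2, Ifi206, Ifi213, Ifi209, Ifi208 and Ifi207 stand next to each other on chromosome 1, with Ifi214 as the 1 coding gene between them. Ifi214 was below 5 TPM in Control.

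Schlafen genes encode proteins that limit the growth of immune cells and, in part, the translation of viral RNA. Slfn5 (ENSMUSG00000054404) was the most abundant of the 6 Schlafen members. It read 267, 292 and 279 TPM in Control, 861, 860.3 and 848 TPM in LPS and 126, 123 and 134 TPM in LPS_NZM, and no group overlapped another. Slfn8 read 70.7 ± 3.72, 309 ± 2.69 and 33.5 ± 3.55 TPM, and Slfn9 read 28.2 ± 1.29, 85.9 ± 2.73 and 10.4 ± 0.913 TPM. Slfn1, which was named for its effect on T cell growth, stood at 9.85% of its LPS level and 52% of its Control level with NZM. Slfn3 stood at 25.4% and 43.3%. Slfn10-ps, a pseudogene, was the member whose level with NZM was the highest share of its LPS level (54.2%), and its Control and LPS libraries overlapped. Of the 6, 5 were called higher in LPS (15.2% of all genes were) and Slfn10-ps had no call.

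Of 9 Schlafen genes found, 8 passed the level and 6 were members. Slfn2 was an exception within the family. Its mean was 301.9 TPM in Control, 1387 TPM in LPS and 388.7 TPM in LPS_NZM, so with NZM it stood above Control. Slfn4 read 7.40, 192.3 and 5.54 TPM, below Control by less than the margin. Slfn5, Slfn9, Slfn8, Slfn1 and Slfn3 lie in 1 run on chromosome 11, with Slfn2 and Slfn4 among them.

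The 11 other interferon-inducible members encode proteins of several kinds. Trim30a and Trim30d belong to the TRIM family of ubiquitin ligases, and TRIM30a limits NF-kB signalling downstream of Toll-like receptors. Trim30a read 122, 132 and 128 TPM in Control, 357, 344 and 352 TPM in LPS and 63.8, 65.9 and 66.9 TPM in LPS_NZM. Trim30d, its neighbour on chromosome 7, had the same order at 101 ± 2.75, 288 ± 3.23 and 47.9 ± 3.86 TPM. Ddx60, a helicase that aids RNA sensing by RIG-I, stood at 12.7% of LPS and 51.5% of Control. Helz2, a helicase and nuclear receptor coactivator, stood at 12.7% and 54.8%. Rnf213, a large ubiquitin ligase that coats bacteria and lipid droplets, read 169.5 ± 4.09, 509 ± 15.4 and 94.5 ± 2.72 TPM. Sp100, a component of PML nuclear bodies, read 159.7 ± 4.69, 365 ± 1.39 and 88.5 ± 3.75 TPM. Trim12c, another TRIM gene, read 35.7 ± 1.82, 74.5 ± 1.25 and 17.2 ± 2.39 TPM, and Ms4a6b, a membrane protein of myeloid cells, read 124 ± 3.22, 248 ± 3.03 and 62.6 ± 2.71 TPM. The remaining members of this group, Gm5431, 9930111J21Rik1 and 9930111J21Rik2, stood at 52.1%, 37.5% and 34% of Control, and they lie in 1 run on chromosome 11 among interferon-induced GTPase genes. All 11 were called higher in LPS than in Control, against 15.2% of all genes. The group was formed by known induction by interferon, and Control and LPS levels chose the members, so the count is a description.

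The values of other interferon-stimulated genes were read beside these. Of 96 interferon-stimulated genes on a fixed list, 15 were members, and the list shares its basis with the way the members were sorted. On the full list 68 of 93 genes tested were called lower and 13 higher in LPS_NZM against Control. Leaving out the members and the symbols set aside by the rule, 63 of its genes were tested. The rule chose members for a low level in LPS_NZM. Leaving them out therefore tilts the counts of LPS_NZM against Control toward higher calls, here and for the other fixed lists below. Of these 63 genes, 60 were called higher in LPS than in Control and 1 lower, against 15.2% and 65.6% of all genes. In LPS_NZM against Control 44 were called lower (29.1% of all genes tested were) and 11 higher (18.6% of all genes, and 47.7% were called in either direction), with a median log2 change of -0.40 against -0.07 for all genes. Irf7 was among the higher ones at 415.2 and 517.2 TPM in Control and LPS_NZM, and Cxcl10, an interferon-inducible chemokine, read 19.1 and 52.2 TPM.

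A further 16 members encode innate sensors, immune receptors and proteins that signal from them. Cd14 (ENSMUSG00000051439), the co-receptor for lipopolysaccharide, had the largest log2 change of (TPM + 1) in LPS against Control of all members (3.41, just above 3.39 for Ifi208). It read 222, 216 and 238 TPM in Control, 2378, 2402 and 2407 TPM in LPS and 102, 101 and 100.2 TPM in LPS_NZM. The LPS libraries were more than an order of magnitude above Control and the LPS_NZM libraries were below it, at 44.8% of Control and 4.21% of LPS. Clec4d (ENSMUSG00000030144), a C-type lectin that recognises mycobacterial glycolipids, read 739, 629 and 702 TPM in Control, 1843, 1788 and 1743 TPM in LPS and 300.2, 292 and 299 TPM in LPS_NZM. Klra2, of the Ly49 receptor family, had the largest margin of this group (2.25), with 26.2, 25.8 and 25.4 TPM in Control, 54.8, 60.4 and 56.4 TPM in LPS and 5.40, 3.88 and 4.64 TPM in LPS_NZM. These 3 receptors thus had separate groups in all 9 libraries.

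Tifa and Alpk1 are neighbours on chromosome 3 and act in 1 pathway, in which the kinase ALPK1 senses the bacterial sugar ADP-heptose and phosphorylates TIFA, which then engages TRAF6. Tifa read 63.6, 66.2 and 64.6 TPM in Control, 177, 163 and 178 TPM in LPS and 29.4, 25.9 and 25.6 TPM in LPS_NZM. Alpk1 read 22.1, 20.5 and 20.8 TPM in Control, 46.5, 49.0 and 45.7 TPM in LPS and 9.90, 11.9 and 11.8 TPM in LPS_NZM. Both had the order LPS, Control, LPS_NZM without overlap.

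Receptors for antibody and modified lipoprotein were among the most abundant members. Msr1, the class A scavenger receptor, read 1279, 1311 and 1295 TPM in Control, 1713, 1674 and 1638 TPM in LPS and 654, 674 and 684 TPM in LPS_NZM. Fcgr1, the high-affinity receptor for IgG, read 301 ± 11.4, 443 ± 7.54 and 149.8 ± 3.30 TPM. Treml4, a receptor that amplifies TLR7 signalling, read 81.8 ± 1.33, 126 ± 3.46 and 39.0 ± 4.09 TPM. Il17ra, the receptor chain for interleukin-17A, stood at 18.7% of LPS and 48.8% of Control. On the fixed list of Fc, scavenger and efferocytosis receptors 10 of the other 40 genes were called higher in LPS_NZM than in Control and 19 lower, against 18.6% and 29.1% of all genes.

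Among the signalling proteins, Pik3ap1 (an adaptor that links receptors to PI3 kinase) read 562 ± 18.1, 913 ± 24.8 and 307 ± 5.46 TPM. Fyb, an adaptor of immune cells, read 331 ± 12.4, 442 ± 7.08 and 139.6 ± 6.21 TPM. Lyn, a Src family kinase, and Ptprc, the CD45 phosphatase of all leukocytes, were close to the margin at 56.3% and 56.2% of Control. Map3k5 (the stress kinase ASK1), Stk17b and Pstpip1 (which binds pyrin) differed little between LPS and Control, with log2 changes of 0.15, 0.03 and 0.12. Of the 16, 15 were called higher in LPS (15.2% of all genes were) and Stk17b had no call. The other 37 genes tested on the fixed list of pattern recognition receptors and adaptors were read in LPS_NZM against Control. There 13 were called higher and 15 lower, against 18.6% and 29.1% of all genes. Tlr4 read 61.4 TPM in Control, 20.2 TPM in LPS and 43.0 TPM in LPS_NZM, and it was not a member because LPS was its lowest group.

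The 6 ligands were Il15, Il18, Icosl, Sema4d, Jag1 and Gal. Il15 (ENSMUSG00000031712), a cytokine that sustains natural killer and memory T cells, read 21.7, 19.5 and 23.3 TPM in Control, 160.5, 155 and 153 TPM in LPS and 8.85, 9.56 and 10.1 TPM in LPS_NZM. Il18, which the inflammasome processes, read 22.3, 21.6 and 20.4 TPM in Control, 96.2, 97.5 and 96.1 TPM in LPS and 11.02, 8.47 and 7.61 TPM in LPS_NZM. Icosl, the costimulatory ligand of ICOS on T cells, read 19.7 ± 1.45, 46.2 ± 3.92 and 6.67 ± 0.552 TPM. These 3 stood below Control after standing well above it in LPS. Most other genes on the fixed list of cytokines and their receptors were not below Control. Of the 49 tested besides the members, 32 were called higher in LPS_NZM than in Control and 7 lower, against 18.6% and 29.1% of all genes.

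Jag1, a Notch ligand, and Sema4d, a semaphorin that signals through plexin B1, had another order. Jag1 read 28.6, 27.5 and 28.5 TPM in Control, 20.8, 21.1 and 20.3 TPM in LPS and 6.40, 6.51 and 7.43 TPM in LPS_NZM. Sema4d read 162, 180.2 and 169 TPM in Control, 141, 142 and 152 TPM in LPS and 72.6, 75.5 and 75.1 TPM in LPS_NZM. Their LPS libraries were all below Control and their LPS_NZM libraries lower again. Gal, the neuropeptide galanin, was unsteady, with 17.5, 12.4 and 0.71 TPM in Control, 9.06, 9.69 and 4.85 TPM in LPS and 2.62, 3.88 and 0 TPM in LPS_NZM. Its groups overlapped because Control replicate 3 was near 0.

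**Figure D3:**
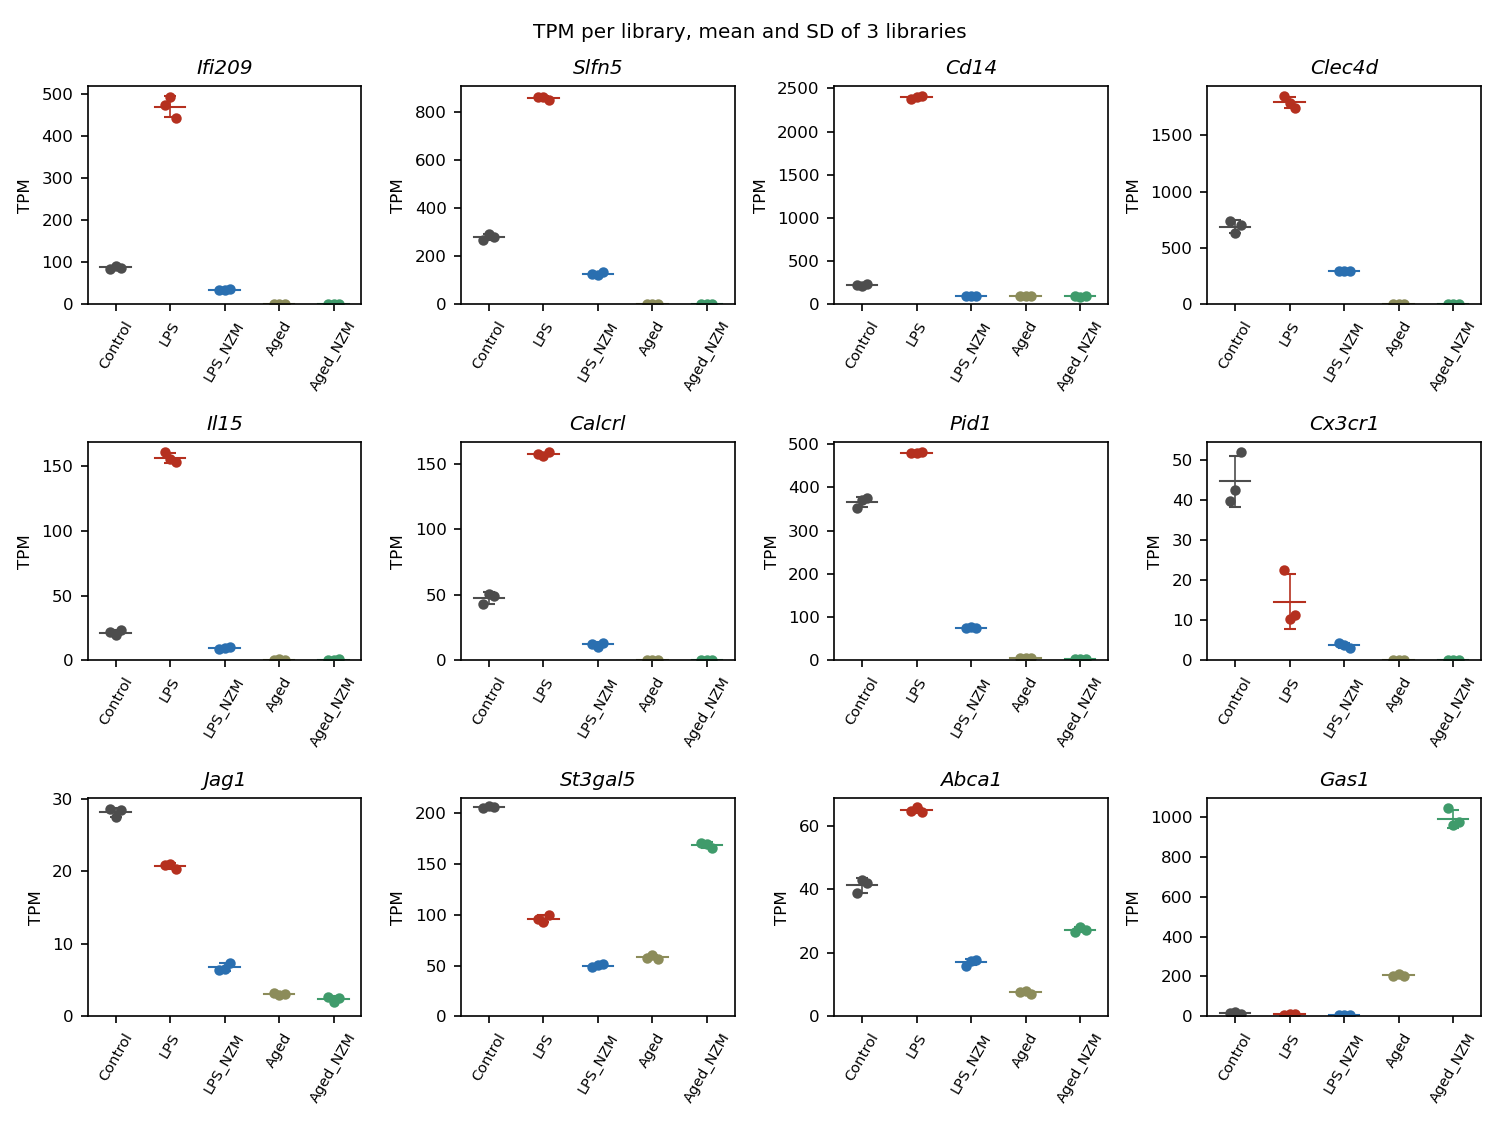
TPM in each library (points) with the mean (line) and SD (bars) of 3 libraries per group, for 12 members, each panel on its own axis from 0. Ifi209, Slfn5, Cd14, Clec4d, Il15, Calcrl and Pid1 are highest in LPS, Cx3cr1, Jag1 and St3gal5 are highest of the BMDM groups in Control, and Abca1, St3gal5 and Gas1 are higher in Aged_NZM than in Aged.

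Of the 9 receptors coupled to G proteins, growth factors or adhesion, Calcrl (ENSMUSG00000059588) had the largest margin (1.88). Calcrl is the receptor for CGRP and adrenomedullin. It read 42.8, 50.8 and 49.1 TPM in Control, 157, 156 and 158 TPM in LPS and 12.5, 10.5 and 13.6 TPM in LPS_NZM, or 25.6% of Control and 7.75% of LPS. Adgrl2, a latrophilin, read 21.4 ± 1.06, 62.3 ± 1.67 and 6.53 ± 0.41 TPM. Itga4, the alpha 4 integrin that binds VCAM1, stood at 43.5% of Control, and Alcam, an adhesion molecule, at 52.6%. Gpr141, an orphan receptor, stood at 46.2% of Control and 17.8% of LPS. Kdr, a receptor for vascular endothelial growth factor, was low throughout at 5.44 ± 0.274, 10.1 ± 0.692 and 1.61 ± 0.166 TPM.

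Cx3cr1, the fractalkine receptor, was the member that stood lowest against Control among the 90 without overlap. It read 39.8, 42.5 and 52.0 TPM in Control, 22.5, 10.3 and 11.3 TPM in LPS and 4.26, 3.72 and 3.18 TPM in LPS_NZM. LPS was already below Control (log2 change -1.61, SE 0.24) and LPS_NZM was at 8.32% of Control. The neighbouring purinergic receptors P2ry12 and P2ry13, receptors for ADP that like Cx3cr1 are known from microglia, differed widely between replicates. P2ry12 read 6.35, 10.7 and 34.3 TPM in Control, 25.5, 1.87 and 2.04 TPM in LPS and 3.92, 4.73 and 3.41 TPM in LPS_NZM, and in 2 of the 3 LPS libraries it was below the LPS_NZM libraries. P2ry13 read 5.15, 7.24 and 14.3 TPM in Control, 17.3, 10.4 and 9.17 TPM in LPS and 2.94, 3.91 and 3.54 TPM in LPS_NZM. All 3 genes were highest of their group in Control replicate 3 and in LPS replicate 1. Without these 2 libraries, an alternative chosen after seeing this, the rule found 98 genes, of which 90 were members.

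The 13 members of lipid, transport and metabolic function included Pid1 (ENSMUSG00000045658), a protein with a phosphotyrosine-binding domain that binds LRP1. It had the largest margin of the 90 members without overlap (2.26). Pid1 read 352, 370.4 and 375 TPM in Control, 478, 478 and 481 TPM in LPS and 74.7, 76.3 and 75.1 TPM in LPS_NZM, with replicates close together in each group. Rab32, a small GTPase of lysosome-related organelles, read 206, 208 and 214 TPM in Control, 404, 398 and 398 TPM in LPS and 64.8, 66.6 and 67.6 TPM in LPS_NZM. Both had the order LPS, Control, LPS_NZM without overlap.

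Transporters in this group were Abca1, which exports cholesterol to apolipoprotein A-I, Slc16a10 for aromatic amino acids, Slc44a1 for choline, Slc25a37 for iron into mitochondria and the calcium channel gene Cacna1d. Abca1 read 38.7, 43.1 and 41.9 TPM in Control, 64.6, 65.9 and 64.5 TPM in LPS and 15.9, 17.4 and 17.8 TPM in LPS_NZM, without overlap. Slc16a10 read 90.1 ± 5.12, 107 ± 1.31 and 29.5 ± 2.01 TPM. Slc44a1, the neighbour of Abca1 on chromosome 4, read 96.4 ± 4.77, 224 ± 2.15 and 49.0 ± 2.02 TPM. Slc25a37 (mitoferrin-1) read 52.1 ± 2.60, 109 ± 2.55 and 26.6 ± 1.99 TPM, and Cacna1d was low at 6.18 ± 0.68, 7.60 ± 0.392 and 2.37 ± 0.118 TPM. Abca1 was the 1 member on the fixed list of cholesterol and lipid metabolism.

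Enzymes that build glycans were picked out of this group after their values were seen. St3gal5, which makes the ganglioside GM3, read 205, 207 and 206 TPM in Control, 95.8, 92.8 and 99.7 TPM in LPS and 48.2, 50.3 and 51.2 TPM in LPS_NZM. It stepped down from Control to LPS (log2 change -1.09, SE 0.035) and stood lower again with NZM. Xylt2, which starts glycosaminoglycan chains, read 266 ± 5.84, 223 ± 4.82 and 76.1 ± 3.07 TPM. Ggta1, which adds alpha-galactose to glycans, read 608 ± 10.4, 704 ± 10.8 and 330.2 ± 6.22 TPM. Fabp7, a fatty acid-binding protein, stood at 35.6% of Control, and Cav2, a caveolin, at 31%. Pde1b, a phosphodiesterase that degrades cyclic nucleotides, stood at 54.1% of Control and had no call in LPS against Control.

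The 13 nuclear and cell cycle members had a median margin of 0.87, and the margin of Brms1 was 1.79. Nr3c1, the glucocorticoid receptor, read 104, 118 and 113 TPM in Control, 178, 176 and 181 TPM in LPS and 62.0, 58.1 and 63.0 TPM in LPS_NZM. Nfxl1, a zinc finger protein, read 94.6 ± 1.49, 81.0 ± 1.79 and 43.0 ± 3.15 TPM. Rbl1, the pocket protein p107 that represses E2F targets, stood at 45.1% of Control, and Ccng2, a cyclin of growth arrest, at 53.4%. Morc3 and Zfp281, which encode nuclear proteins, stood at 55.3% and 54.2%. Trps1, a GATA-type repressor, Ncoa7, a nuclear receptor coactivator, Arid3b, a DNA-binding protein, and Perm1, a regulator of muscle metabolism, stood at 52.7%, 50.9%, 48.7% and 43.7%. Gas1, a growth arrest protein of the cell surface, read 17.9, 19.6 and 12.9 TPM in Control, 8.87, 11.7 and 10.4 TPM in LPS and 4.45, 5.10 and 6.03 TPM in LPS_NZM. Of these 13, 6 were called higher in LPS than in Control, 2 lower (Gas1 and Nfxl1) and 5 had no call. Of all genes 15.2% were called higher and 65.6% lower.

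The proteins that fitted no other group were 9, of which Myl12b, Sept2 and Psd3 overlapped between groups and are described further on. Spaca6, known from sperm and egg fusion, read 8.89, 9.42 and 11.3 TPM in Control, 33.4, 36.4 and 34.2 TPM in LPS and 3.44, 4.01 and 3.90 TPM in LPS_NZM. Zup1, a peptidase for long ubiquitin chains, read 25.8 ± 1.28, 73.2 ± 4.29 and 14.4 ± 0.77 TPM. Both stood higher in LPS than in Control and lowest with NZM. Kbtbd11, of the Kelch and BTB family, stood at 33.4% of Control, Crybg1 at 44.2%, Mturn at 45% and Prag1 at 46.1%. Mturn was uneven within Control, at 32.1, 30.0 and 15.3 TPM, and its LPS_NZM libraries read 10.9, 15.1 and 8.86 TPM.

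The 8 members called lower in LPS than in Control were Cx3cr1, St3gal5, Gas1, Cav2, Jag1, Xylt2, Sema4d and Nfxl1, with log2 changes from -1.61 to -0.22. After median centring 2 members in all were called lower, against 29.1% of all genes. In these 8 genes each LPS_NZM library was lower than every LPS library, so their groups stood in the order Control, LPS, LPS_NZM. For the 70 called higher the order was LPS, Control, LPS_NZM. No interferon-inducible member was among the 8.

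Members with overlapping libraries need a separate reading. Brms1 read 45.1, 5.30 and 7.18 TPM in Control, 7.20, 47.5 and 41.1 TPM in LPS and 3.14, 6.12 and 5.29 TPM in LPS_NZM, so 1 Control and 2 LPS libraries set its means. Myl12b was named from an identifier (ENSMUSG00000117098) that shares its symbol with another, and it read 16.8, 0 and 0 TPM in Control, 128, 0 and 0 TPM in LPS and 0.83, 0 and 0 TPM in LPS_NZM. Sept2 (ENSMUSG00000116048) also shares its symbol. Summed over both identifiers, LPS_NZM lay above the lower of Control and LPS for both genes, by 0.24 and 0.11 on the log2 scale. Pagr1a and Psd3 overlapped as well, and Psd3 read 23.4, 8.31 and 24.9 TPM in Control, 19.4, 20.4 and 17.9 TPM in LPS and 7.95, 9.01 and 9.09 TPM in LPS_NZM. Leaving out each of the 9 BMDM libraries in turn kept 77 members throughout and lost 20 at least once, among them Ifi208, Gas1, Alpk1, Slfn10-ps, Ptprc, Lyn and Zup1.

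Markers of the cell types that the BMDM could hold were read beside these values. The 12 macrophage markers, none at 0, summed to between 36865 and 39211 TPM in Control, 26673 and 26850 TPM in LPS, and 32289 and 32754 TPM in LPS_NZM. In LPS_NZM against Control 3 of the 12 were called higher and 5 lower, against 18.6% and 29.1% of all genes. Of the 12, 1 (Fcgr1) is a member. Adgre1 (F4/80) read 706.0 ± 18.2 TPM in Control and 937.2 ± 6.87 TPM in LPS_NZM, and Csf1r read 1100 ± 57.9 and 1279 ± 14.3 TPM. By contrast, Mertk read 56.0 ± 2.48 TPM in Control and 27.3 ± 2.54 TPM in LPS_NZM, and Lyz2 read 22620 ± 1390 and 17530 ± 214 TPM. Itgam (673 ± 18.4 and 557 ± 0.934 TPM) and Cd68 (1831 ± 38.9 and 1748 ± 59.6 TPM) also had lower means in LPS_NZM. The 12 stromal markers, none at 0, summed to 2898 to 3113 TPM in Control, 2368 to 2583 TPM in LPS and 2494 to 2594 TPM in LPS_NZM, so the BMDM libraries held transcripts of stromal genes too. The 7 monocyte markers, none at 0, summed to 1361 to 1394 TPM in Control, 1679 to 1729 TPM in LPS and 2735 to 2774 TPM in LPS_NZM, and in LPS_NZM against Control 5 were called higher and 1 lower. The 7 dendritic cell markers summed to 26.1 to 41.5, 48.7 to 58.0 and 68.9 to 73.0 TPM. The 14 neutrophil markers, none at 0, summed to 1708 to 1899, 2555 to 2798 and 2316 to 2725 TPM. The 6 endothelial markers, which include Kdr, summed to 45.3 to 48.1, 40.1 to 43.5 and 79.6 to 83.1 TPM. The 10 mast cell and basophil markers ran from 17.7 to 536.4 TPM within Control alone. The part of these differences in the members' levels was not tested.

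The BMSC libraries took no part in the choice, and so they allow a test of NZM on the members. Macrophage markers were nearly absent from them, with sums of 29.0 to 33.7 TPM in Aged and Adgre1 at 0. The 7 monocyte markers, by contrast, summed to 1338 to 1523 TPM in Aged, near their sum in Control macrophages, and to 2841 to 2894 TPM in Aged_NZM. However, 3 of the 7 were at 0 in every Aged library and 3 in every Aged_NZM library, so the remaining markers made up these sums. Of the 4 tested, 1 was called higher and 1 lower. Ptprc was at most 0.02 TPM. Pdgfra, a stromal marker, was 91.4 ± 3.82 TPM in Aged and 6.01 ± 0.955 TPM in Control macrophages. Other stromal markers did not separate the cell types in this way. Col1a1 read 309 ± 18.3 TPM in Aged and 1303 ± 60.6 TPM in Control, and Pdgfrb read 25.4 ± 1.27 and 29.6 ± 1.72 TPM. The 12 stromal markers summed to 2753 to 2859 TPM in Aged and to 2898 to 3113 TPM in Control. Of the 97 members, 63 were tested in BMSC and 34 were too low, among them Cx3cr1, Calcrl, Clec4d, Msr1, Fcgr1, Il15, Slfn5, Aim2 and Ifi209. In limma's test of Aged_NZM against Aged with Benjamini-Hochberg adjustment over all 13865 genes tested, 43 of the 63 members were called (68.3%, against 70.5% of all genes). Of these, 21 rose (33.3%, against 21.6% of all genes) and 22 fell (34.9%, against 48.9%). The other 20 had no call. All 43 called members had separate groups of libraries. The share of all called genes with separate groups was not computed, so this count is a description and not a trait of the members. The median log2 change was -0.09 for the members and -0.18 for all genes. The members tested thus moved in both directions in BMSC. After centring on the median gene, which moved the median of all genes to -0.02, 26 rose and 16 fell, against 31.1% and 35.4% of all genes. Rises then made up 61.9% of the members' calls, against 48.8% without centring.

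**Figure D4:**
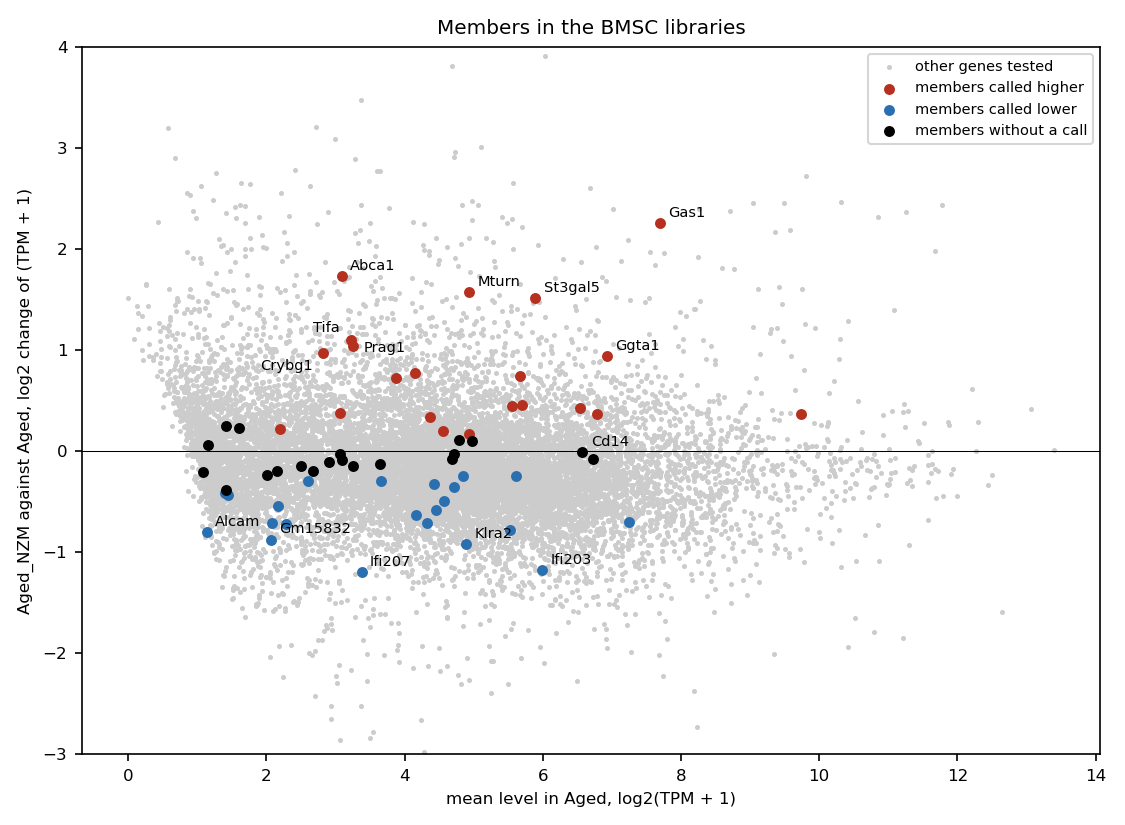
Log2 change of (TPM + 1) in Aged_NZM against Aged (y axis) over the mean level in Aged, log2(TPM + 1) (x axis), for all genes tested, with the 63 tested members coloured by their call. Members called higher and lower are about equally many, from Ifi207 (-1.20) to Gas1 (2.26), and 9 genes lie outside the plotted range of -3 to 4.

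Gas1 rose the most. It read 202, 213 and 204 TPM in Aged and 1044, 958 and 975 TPM in Aged_NZM (log2 change 2.26, SE 0.041, adjusted p = 5.14e-10). Its level in BMSC was far above that in BMDM, and 15 members had a higher mean in Aged than in Control. Abca1 read 7.64, 7.90 and 7.06 TPM in Aged and 26.5, 28.1 and 27.3 TPM in Aged_NZM (log2 change 1.73, SE 0.06, adjusted p = 1.48e-08). Mturn read 30.4, 30.4 and 27.8 and 89.99, 84.3 and 95.3 TPM (log2 change 1.57, SE 0.057, adjusted p = 1.84e-08). St3gal5 read 57.7, 60.6 and 56.8 and 171, 169.8 and 165 TPM (log2 change 1.52, SE 0.038, adjusted p = 2.36e-09). The groups of each of these 4 genes were separate by a wide gap.

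Tifa and its neighbour Alpk1 both rose, by log2 changes of 1.10 (from 8.31 ± 0.674 to 18.9 ± 0.618 TPM) and 0.72 (from 13.6 ± 1.13 to 23.1 ± 1.58 TPM). Prag1, a pseudokinase, rose by 1.04 and Ggta1 by 0.94. In the lipid, transport and metabolism group 5 of the 11 tested members rose (Abca1, St3gal5, Ggta1, Rab32 and Slc44a1), 3 fell and 3 had no call. Of all genes tested 21.6% rose and 48.9% fell, and the group was formed after the members had been seen, so this is a description. Slc25a37 was among those that fell, from 155, 147 and 149.8 TPM to 91.0, 93.0 and 93.0 TPM (log2 change -0.70, SE 0.035, adjusted p = 1.46e-07).

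The 2 HIN-200 members that could be tested fell. Ifi203 read 61.5, 63.8 and 62.2 TPM in Aged and 25.3, 28.3 and 27.7 TPM in Aged_NZM (log2 change -1.18, SE 0.05, adjusted p = 4.98e-08), and Ifi207 read 9.97, 8.55 and 9.67 and 3.40, 3.20 and 4.01 TPM (log2 change -1.20, SE 0.095, adjusted p = 3.03e-06). The other 5 were at most 0.35 TPM in BMSC and were not tested. Of 3 Schlafen genes tested, Slfn8 rose (0.20), Slfn9 fell (-0.25) and Slfn3 had no call. Slfn9 lost its call after centring, with a log2 change of -0.09 and an adjusted p of 0.138 in limma. Of 7 other interferon-inducible genes tested, Trim30a, Trim12c and 9930111J21Rik2 rose, Rnf213 (-0.63) and Helz2 (-0.33) fell, and 2 had no call. The fixed list of interferon-stimulated genes, without members and set-aside symbols, had 16 of 50 tested called higher and 15 lower, against 21.6% and 48.9% of all genes.

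Klra2 was present in BMSC at a level like that of Control macrophages, and it fell from 31.9, 27.1 and 27.2 TPM to 12.8, 18.8 and 12.9 TPM (log2 change -0.92, SE 0.13, adjusted p = 0.000159). Alcam fell from a low level of 1.20 ± 0.227 TPM (log2 change -0.80, SE 0.15, adjusted p = 0.001). Brms1, whose BMDM libraries overlapped, was steady within the BMSC groups and fell from 45.9, 44.7 and 45.2 TPM to 26.9, 24.0 and 27.1 TPM (log2 change -0.78, SE 0.054, adjusted p = 1.18e-06). In a fit of all 15 libraries, which shares the spread of the uneven BMDM libraries, the log2 change of Brms1 was the same and the adjusted p was 0.371 in limma. In the nuclear and cell cycle group 4 of 12 tested members rose (Gas1, Ccng2, Nr3c1 and Zfp281), 5 fell (among them Rbl1 at -0.71 and Nfxl1 at -0.50) and 3 had no call. Of all genes tested 21.6% rose and 48.9% fell. Of the ligands, Il18 and Jag1 could be tested and had no call, but in the fit of all 15 libraries both were called lower (adjusted p = 0.0300 and 0.0150 in limma).

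Cd14 was expressed in BMSC at a level like that of the LPS_NZM macrophages and did not pass the test. It read 92.2, 97.4 and 93.0 TPM in Aged and 98.2, 88.7 and 94.2 TPM in Aged_NZM (log2 change -0.01, SE 0.046, adjusted p = 0.882). After median centring its log2 change was 0.15 with an adjusted p of 0.0225 in limma. Stromal markers moved along with the contrast in BMSC. Their sum was 2753 to 2859 TPM in Aged and 6309 to 6321 TPM in Aged_NZM, 9 of the 10 tested were called higher and none lower, and the median log2 change was 1.41. The 6 smooth muscle markers summed to 454.8 to 479.8 TPM in Aged and 1652 to 1746 TPM in Aged_NZM, and all 4 tested were called higher with a median log2 change of 1.98. The part of these shifts in the members' rises was not tested.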

How the data were processed

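Polyadenylated RNA of 15 mouse libraries (9 BMDM, 6 BMSC) had been sequenced. The authors deposited 1 table of TPM for 56979 Ensembl identifiers, made with HISAT2, RSEM, StringTie and fastp on GRCm39 per the submitters' processing notes, which give no roles or versions. Each library summed to the same total, so depth is unknown and no counting interval is given. Between 21360 and 23398 identifiers were above 0 in a library, and no replicates were identical.

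Symbols came from GENCODE M21 (GRCm38) and matched 52072 identifiers, leaving 4907 without one. Groups followed the sample names. Members and lists were chosen with earlier results of these data known. limma 3.58.1 in R 4.3.3 was fitted with trend to log2(TPM + 1), which understates changes of low genes, separately for BMDM and BMSC, over genes with at least 1 TPM in at least 3 libraries. P-values were two-sided, adjusted by Benjamini-Hochberg over all genes tested, and called under 0.05. The procedure was tested on simulated data. Promoters were RefSeq's on GRCm38.p6, and figures and counts used Python 3.11.15.

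Named genes, among members with a regular (not predicted) symbol, were the 20 with the largest margin, up to 4 per list, the 6 largest rises and falls in BMSC, the 10 largest and smallest LPS differences, those at the margin and those on marker lists. All other genes were named after their values were seen, to describe their functional group.

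Alternatives comprised the pseudocount, filters, centring, quantile normalization, no trend, a replicate block, a joint fit of all libraries, a minimum change and leaving out each library.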

Additional observations from a re-analysis of the deposited data

Results flagged for a closer look

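For 20 members every Aged_NZM library lay above every Aged library and the gene was called higher in limma's test, while every LPS_NZM library lay below every LPS library. Of all genes tested in BMSC, 21.6% were called higher (31.1% after centring). The lower level in BMDM is what chose these genes, and the difference between the cell types was not tested. Their log2 changes in Aged_NZM against Aged were 2.26 for Gas1, 1.73 for Abca1, 1.57 for Mturn, 1.52 for St3gal5, 1.10 for Tifa, 1.04 for Prag1, 0.97 for Crybg1 and 0.94 for Ggta1. They were 0.77 for Psd3, 0.75 for Adgrl2, 0.72 for Alpk1, 0.46 for Ccng2, 0.44 for Rab32 and 0.43 for Slc44a1. The smallest were 0.38 for Trim30a, 0.37 for Nr3c1, 0.34 for Trim12c, 0.22 for 9930111J21Rik2, 0.20 for Slfn8 and 0.17 for Zfp281.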

How the results depend on the processing

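The rule found 54 genes at a margin of 1.0 and 197 at 0.6, against 97. Its count ran from 95 to 118 without 1 library at a time, and after median centring it was 103, with 79 of the members among them. In Aged_NZM against Aged, a minimum absolute log2 change of 1 left 8 members called, 6 higher and 2 lower. The shares of all genes at that minimum were not computed, so this split cannot be judged. A filter of at least 5 TPM left 20 members higher and 14 lower, against 23.5% and 55.4% of all genes. The members' median log2 change, -0.09, was -0.101 with a pseudocount of 0.1, -0.0745 without a filter, -0.0166 at 5 TPM, 0.0687 after centring, 0.00119 after quantile normalization and -0.0698 with all 15 libraries in the fit, and ran from -0.107 to -0.0828 without 1 library at a time. Quantile normalization gave 26 members higher and 18 lower, against 29.9% and 37.3% of all genes.

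In LPS against Control, a minimum change of 1 left 39 called, 37 higher and 2 lower, again without the shares of all genes. Centring left 2 lower in that comparison, against 29.1% of all genes. There the members' median was 1.23 after centring and 0.99 after quantile normalization. Cd14 turned from -0.01 to 0.15 (adjusted p = 0.0225 in limma) after centring in BMSC and to 0.17 (adjusted p = 0.00976 in limma) after quantile normalization. Same-numbered replicates of Aged and Aged_NZM did not deviate together (correlations -0.04 to 0.01). Those of Control and LPS_NZM had 0.158, 0.03 and 0.212, not all above 0.1, and the other BMDM pairs -0.07 to 0.04, so numbers were not taken as pairs. With the replicate block, 20 members were called higher and 22 lower in Aged_NZM against Aged, against 21.5% and 48.3% of all genes. Of these members, 42 were in common with the 43 called without the block. The cause of these shifts was not tested. Depth is unknown with TPM, which limits what can be said of low members.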

Other observations

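Of 89 coding members placed in the RefSeq gene order, 24 lay in 8 runs of at least 2, with at most 3 steps of coding genes between neighbours. Most of them are in the HIN-200, Schlafen, Trim30 and chromosome 11 runs given above, and the others include Zfp281 with Ptprc on chromosome 1. The share of all genes in such runs was not computed, so the count is a description. The 7 predicted or noncoding members had margins from 0.92 to 1.33. Gm6545 was the most induced of them by LPS, at 8.43, 9.71 and 9.73 TPM in Control, 85.5, 87.6 and 78.1 TPM in LPS and 2.96, 3.05 and 3.30 TPM in LPS_NZM, and it was at 0 in all BMSC libraries. Gm43197 read 12.9 ± 0.95, 24.8 ± 2.53 and 6.35 ± 1.20 TPM and fell in BMSC (log2 change -0.58, SE 0.095, adjusted p = 0.000386, limma). Gm15832 (log2 change -0.88, SE 0.19, adjusted p = 0.00253), AI504432 (log2 change -0.44, SE 0.16, adjusted p = 0.0336) and 6720489N17Rik (log2 change -0.30, SE 0.063, adjusted p = 0.00201) also fell there in limma's test, and Gm11425 and Gm16091 had no call. The genes set aside by symbol had like values, with Ifit3 at 239.3 TPM in Control, 1810 TPM in LPS and 67.0 TPM in LPS_NZM, and Hmox1 at 2637, 3703 and 915.6 TPM.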
